A study of Mus musculus with 35 samples.

Results

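The 9 genes described here mark the primitive endoderm, and were taken by symbol (*Gata4*, *Gata6*, *Sox7*, *Sox17*, *Dab2*, *Pdgfra*, *Lama1*, *Lamb1* and *Sparc*) from the 26127 rows of a table of total RNA-seq levels in mouse embryonic stem cells (ESCs). All 9 were found. The cells carried loxP sites around both copies of *Dnmt1*, the maintenance DNA methyltransferase gene, and Cre recombinase was induced with tamoxifen to give the *Dnmt1* knockout (KO). The labels name 17 control libraries (WT, background strain E14; the study's methods name C57BL/6) and 17 *Dnmt1* KO libraries at days 0, 1, 3, 6, 9, 11, 17 and 25, with 2 libraries per genotype and day and 3 at day 1. A single library came from *Dicer* KO cells, made by CRISPR/Cas9 in the same loxP cells and picked as single-cell colonies, and had no replicate. Cells were grown in serum with LIF, with or without feeder fibroblasts, and which libraries had feeders is not given in the sources used here.

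The primitive endoderm is the layer that separates from the pluripotent epiblast inside the blastocyst and then forms the visceral and parietal endoderm of the yolk sac. FGF signalling raises GATA6, a zinc finger transcription factor, which opposes NANOG; GATA4, SOX17 and SOX7 follow, and the cells sort to the surface and lay down a basement membrane of laminin and collagen IV. ESCs in serum hold a minority of cells that drift towards this state.

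On NCBIM37, the build of the table, *Gata6* (ENSMUSG00000005836.8) lies on chromosome 18 from 11052508 to 11085633 and *Sox17* (ENSMUSG00000025902.7) on chromosome 1 from 4481009 to 4486494. *Gata4* (ENSMUSG00000021944.8; 63817759 to 63890529) and *Sox7* (ENSMUSG00000063060.5; 64562511 to 64569569) are both on chromosome 14, 672 kb apart. *Pdgfra* (ENSMUSG00000029231.9) is on chromosome 5 from 75548316 to 75594229 and *Dab2* (ENSMUSG00000022150.9) on chromosome 15 from 6249788 to 6390712. *Lama1* (ENSMUSG00000032796.7) is on chromosome 17 from 68046605 to 68171985, *Lamb1* (ENSMUSG00000002900.8) on chromosome 12 from 31950099 to 32014509 and *Sparc* (ENSMUSG00000018593.6) on chromosome 11 from 55208002 to 55233582. Values are over the exons of each gene.

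Levels are RPKM, that is, reads scaled to the exon length in kilobases and to the mega-reads sequenced. Depth ranged from 24.3 to 72.1 mega-reads, and 5.10 to 17.5 mega-reads lay in exons of genes. Of the reads, 20.2% to 22.0% were exonic in the 20 low-share libraries, which are those of days 0, 3, 6 and 9 with the first 2 replicates of day 1. In the 15 high-share libraries, which are the third replicates of day 1, all later days and *Dicer* KO, 44.1% to 48.8% were exonic. KO was therefore compared with WT within a day, and levels of days only inside 1 of these sets. *Dnmt1* RNA followed the labels at days 3, 9, 11, 17 and 25, with 14.1 to 34.8 RPKM in WT and 2.58 to 4.40 in KO. On day 6 it went against them, at 3.22 and 3.40 RPKM in the libraries labelled WT and 20.2 and 20.4 in those labelled KO. Day 6 is therefore given as labelled and left out of the mean over days. The 2 KO libraries of day 11 differed most from each other (Pearson r across genes 0.969, against 0.989 to 0.995 in the other pairs within a set). *Pou5f1*, which encodes the ESC factor OCT4, was at 45.5 to 260.4 RPKM in the 34 libraries and 128 in *Dicer* KO. Nothing in the labels says that replicates were separate cultures, so p-values measure only the spread between these libraries.

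To show the sequence next to which the changes below occurred, the 250 bases before the transcription start are given for the members that have an entry in the RefSeq promoter table (GRCm38.p6), with CG dinucleotides, the sites that DNMT1 keeps methylated, in capitals. These are *Pdgfra* (chr5:75152001-75152250, plus strand), *Sparc* (chr11:55420081-55420330, minus strand), *Lamb1* (chr12:31265043-31265292, plus strand) and *Dab2*, which has 2 starts (chr15:6299539-6299788, plus strand, and chr15:6386498-6386747, plus strand). *Gata4*, *Gata6*, *Sox7*, *Sox17* and *Lama1* are named only.
Pdgfra: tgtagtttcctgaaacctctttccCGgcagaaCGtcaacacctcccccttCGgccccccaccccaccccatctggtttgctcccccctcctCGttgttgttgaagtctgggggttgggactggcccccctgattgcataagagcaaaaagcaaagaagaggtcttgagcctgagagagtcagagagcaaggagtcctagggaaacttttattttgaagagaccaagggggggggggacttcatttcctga
Sparc: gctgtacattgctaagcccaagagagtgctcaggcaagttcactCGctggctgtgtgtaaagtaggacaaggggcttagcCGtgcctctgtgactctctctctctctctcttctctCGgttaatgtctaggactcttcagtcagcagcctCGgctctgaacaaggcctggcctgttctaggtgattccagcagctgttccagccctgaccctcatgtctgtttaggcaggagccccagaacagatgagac
Lamb1: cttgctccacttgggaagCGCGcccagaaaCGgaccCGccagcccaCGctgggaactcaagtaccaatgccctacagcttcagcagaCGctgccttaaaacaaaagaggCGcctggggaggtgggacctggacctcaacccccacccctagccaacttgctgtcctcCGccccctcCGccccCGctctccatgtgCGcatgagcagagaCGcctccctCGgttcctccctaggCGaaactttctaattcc
Dab2, upstream start: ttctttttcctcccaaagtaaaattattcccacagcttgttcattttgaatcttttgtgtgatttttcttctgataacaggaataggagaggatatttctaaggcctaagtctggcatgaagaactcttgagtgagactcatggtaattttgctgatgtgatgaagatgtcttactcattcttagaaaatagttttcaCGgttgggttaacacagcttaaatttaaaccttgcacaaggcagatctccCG
Dab2, downstream start: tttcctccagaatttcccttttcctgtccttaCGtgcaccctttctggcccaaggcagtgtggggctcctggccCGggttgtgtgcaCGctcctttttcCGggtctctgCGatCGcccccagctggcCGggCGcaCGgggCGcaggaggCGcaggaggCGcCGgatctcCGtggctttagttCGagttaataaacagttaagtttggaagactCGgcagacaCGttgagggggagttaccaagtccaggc
The *Pdgfra* and *Sparc* windows each held 4 CG, more than 37.8% of the 32851 windows of this length in the table, whose median was 6. *Lamb1* had 14 (more than 70.6% of windows). The upstream *Dab2* window had 2 (more than 18.8% of windows) and the downstream one 17 (more than 76.5%), on either side of the median. Both strands were searched for GATAA, the core that GATA factors bind, and ACAAT, a core of SOX sites. GATAA occurred in the upstream *Dab2* window, as it did in 22.6% of all windows, and in none of the other 4. ACAAT, present in 27.7% of all windows, occurred in none of the 5. These letters are a description of the windows only.

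The members fell into 2 classes by level. *Sparc*, a secreted collagen-binding glycoprotein of parietal endoderm that fibroblasts also make, ranged from 13.8 to 50.2 RPKM over the 34 WT and *Dnmt1* KO libraries. *Lamb1* and *Lama1*, the beta 1 and alpha 1 chains of laminin, ranged from 4.57 to 16.7 and from 1.87 to 20.6 RPKM. The regulators were near or below 1 RPKM. *Gata4* reached 1.94, *Gata6* 1.59, *Pdgfra* (the PDGF receptor alpha, present on primitive endoderm and on fibroblasts) 2.13 and *Dab2* (an endocytic adaptor needed to order the primitive endoderm layer) 1.91 RPKM at most. *Sox17* stayed between 0.20 and 0.96 RPKM (19 to 133 reads) and *Sox7* between 0.01 and 0.70 RPKM (1 to 70 reads).

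**Figure D1:**
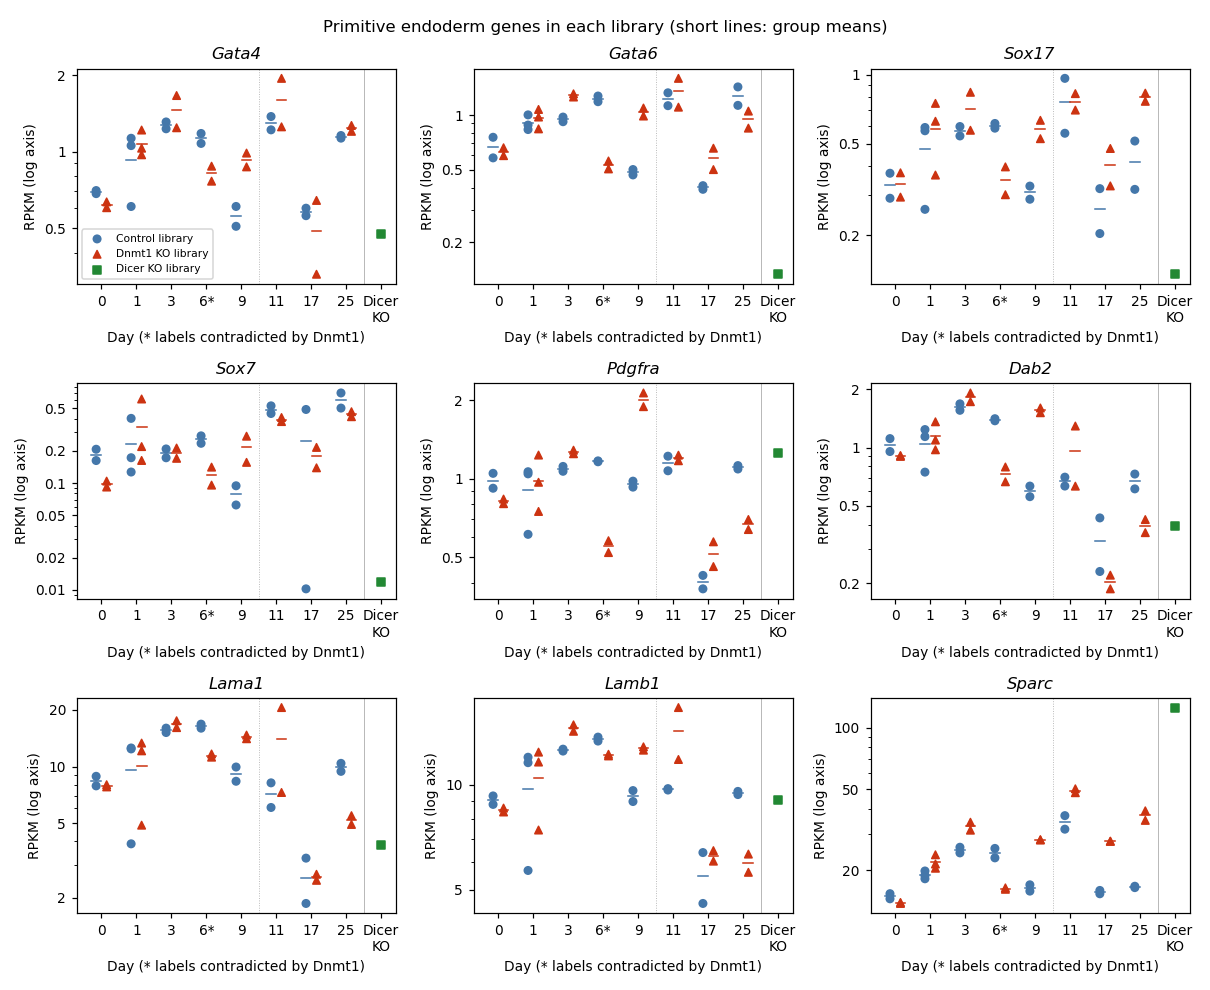
RPKM of each gene (log axis, scaled per panel) by day, with 1 point per library, short lines at group means, WT as circles, *Dnmt1* KO as triangles and the *Dicer* KO library as a square. The dotted line separates days 0 to 9 from days 11 to 25, whose levels are not compared. At day 9 the KO triangles lie above the WT circles in all 9 panels (39.1% of all genes), and at day 25 they lie below in 6 (33.4% of all genes).

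*Sox7* and *Sox17* did not exceed 1 RPKM in any library and so did not enter the main test, which took the 11615 genes above 1 RPKM in at least 2 libraries. The other 7 members were tested with limma on log2(RPKM + 0.1), with Benjamini-Hochberg adjustment over all genes tested; a gene was called at an adjusted p below 0.05. Differences below are on this scale, with their SE, and they understate the change of low genes. RNA came from bulk cells, so a change in the number of cells of a type and in the RNA per cell cannot be told apart.

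At day 0 *Dnmt1* RNA did not yet differ (18.3 to 18.7 RPKM in all 4 libraries), and no member was called, nor any other gene (0% of all genes by limma, with 242 of 11615 at an unadjusted p under 0.05). The 2 KO libraries nevertheless lay below both WT libraries for 6 of 9 members, against 16.2% of all genes. *Pdgfra*, for example, had 1.05 and 0.92 RPKM in WT and 0.84 and 0.80 in KO. On day 1, again, no member was called (0.146% of all genes were). *Sparc* had 19.9, 18.9 and 18.2 RPKM in WT and 23.8, 21.5 and 20.5 in KO, so its libraries did not overlap (2.06% of all genes had KO above WT in this way), with a difference of 0.21 ± 0.06 and an adjusted p of 0.20 (limma).

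At day 3 *Sparc* was the 1 member called, and it was higher in KO (7.4% of all genes were called higher). Its level was 24.4 and 26.0 RPKM in WT and 34.4 and 31.5 in KO, a difference of 0.39 ± 0.07 (limma adjusted p 0.0014). *Gata6* had 0.92 and 0.98 RPKM in WT and 1.31 and 1.26 in KO. Its libraries did not overlap, but the difference of 0.40 ± 0.16 had an adjusted p of 0.11. KO lay above WT in 6 of 9 members, beside 34.9% of all genes.

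Day 9 showed the broadest rise. Of the 7 members tested 6 were higher in KO (16.7% of all genes were called higher), and in all 9 members both KO libraries lay above both WT libraries (39.1% of all genes). The median difference of the 7 was 0.78, and that of all genes 0.02. *Dab2* had the largest difference of the 7 on this scale. It rose from 0.56 and 0.63 RPKM in WT to 1.51 and 1.60 in KO, a difference of 1.25 ± 0.22 (limma adjusted p 0.00016) and a 2.61-fold ratio of the mean RPKM. *Pdgfra* had 0.98 and 0.93 RPKM in WT and 2.13 and 1.89 in KO, the highest *Pdgfra* level in the series. The difference was 1.00 ± 0.12 (adjusted p 1.26e-06).

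Both GATA factors were called. *Gata6* rose from 0.47 and 0.50 RPKM in WT to 0.99 and 1.09 in KO (difference 0.96 ± 0.16, limma adjusted p 8.28e-05). *Gata4* had 0.51 and 0.61 RPKM in WT and 0.87 and 0.99 in KO, a smaller rise (0.64 ± 0.20, adjusted p 0.021) that was lost when WT replicate 1 or either KO library was left out. *Sox17* had 0.33 and 0.29 RPKM in WT and 0.63 and 0.53 in KO. Tested without the filter on low levels, its difference was 0.74 ± 0.23 (limma adjusted p 0.037, 15.2% of 22909 genes called). *Sox7* had 0.09 and 0.06 RPKM in WT and 0.27 and 0.16 in KO, a 2.75-fold ratio of the means, and was not called (0.80 ± 0.43, adjusted p 0.26).

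Among the 3 matrix genes *Sparc* and *Lamb1* were called. *Sparc* went from 15.8 and 17.004 RPKM in WT to 28.3 and 28.2 in KO (0.78 ± 0.07, limma adjusted p 6.27e-08). *Lamb1* had 8.96 and 9.63 RPKM in WT and 12.6 and 12.9 in KO (0.45 ± 0.13, adjusted p 0.011), a call that was lost without WT replicate 1 or either KO library. *Lama1* had 8.35 and 9.94 RPKM in WT and 14.1 and 14.7 in KO, which did not overlap, but at 0.65 ± 0.27 it was not called (adjusted p 0.081).

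Against day 0, 6 members were higher in KO at day 9 (18.1% of all genes called higher), with *Pdgfra* (1.196 ± 0.12) and *Sparc* (1.02 ± 0.07) the largest. The calls of *Dab2* (0.72) and *Lama1* (0.86) were each lost when any 1 of the 4 KO libraries was left out. *Gata4* was not called (0.52 ± 0.20, limma adjusted p 0.057). In WT over the same days 1 member was called, and it was lower (7.26% of all genes called lower). This was *Dab2*, which had 1.11 and 0.95 RPKM at day 0 and 0.56 and 0.63 at day 9 (fell by 0.70 on the log2 scale, adjusted p 0.031); the call was lost when any 1 of these 4 libraries was left out. *Gata6* in WT had 0.58 and 0.76 RPKM at day 0 and 0.47 and 0.50 at day 9, and was not called (adjusted p 0.10).

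**Figure D2:**
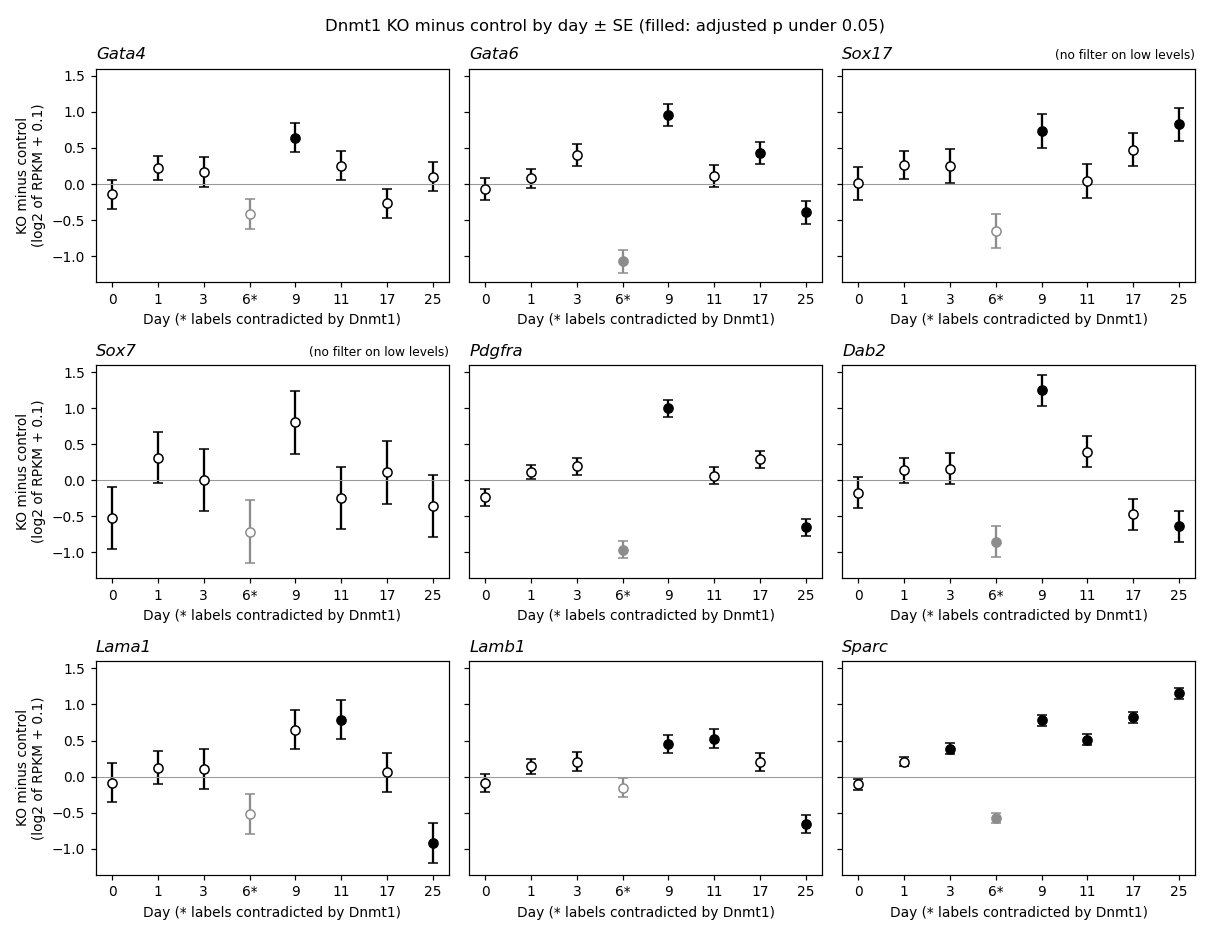
*Dnmt1* KO minus WT on the log2(RPKM + 0.1) scale (points) with the SE of the fit (bars) for each gene and day; filled points had a limma adjusted p below 0.05, and day 6, as labelled, is grey. *Sparc* is at 0.39 at day 3, 0.78 at day 9, 0.51 at day 11 and 1.15 at day 25, while *Pdgfra* goes from 1.00 at day 9 to -0.65 at day 25.

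The libraries labelled KO at day 6 lay below those labelled WT in all 9 members (41.2% of all genes). As labelled, 4 of 7 members were called lower (18.5% of all genes). *Pdgfra* had 1.16 and 1.17 RPKM in the libraries labelled WT, which had little *Dnmt1* RNA, and 0.52 and 0.58 in those labelled KO (-0.96 ± 0.12, limma adjusted p 2.00e-06). *Gata6* had 1.18 and 1.27 against 0.51 and 0.56 RPKM (-1.07 ± 0.16, adjusted p 2.03e-05). *Dab2* (-0.85 ± 0.22) and *Sparc* (-0.57 ± 0.07) were the other members called. So at day 6, as at day 9, the members were higher in the libraries with less *Dnmt1* RNA, which at day 6 are the ones labelled WT.

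At day 11 the called members were matrix genes, with 3 of 7 higher in KO (22.7% of all genes). *Sparc* had 37.1 and 31.8 RPKM in WT and 50.2 and 48.0 in KO (0.51 ± 0.07, limma adjusted p 1.63e-05). *Lama1* had 6.06 and 8.19 RPKM in WT and 7.28 and 20.6 in KO, where the high value was replicate 2. *Lamb1* had 9.67 and 9.76 RPKM in WT and 11.8 and 16.7 in KO. The calls of *Lama1* (0.79 ± 0.27) and *Lamb1* (0.53 ± 0.13) were both lost without KO replicate 2, that of *Lama1* also without WT replicate 1, and a fit on the day 11 libraries alone called none of the 3. *Pdgfra*, at 1.22 and 1.07 RPKM in WT and 1.17 and 1.23 in KO, overlapped.

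On day 17, 2 members were higher in KO (28.9% of all genes). *Sparc* had 15.4 and 16.0 RPKM in WT and 27.8 and 27.7 in KO (0.82 ± 0.07, limma adjusted p 9.27e-09). *Gata6* had 0.39 and 0.41 RPKM in WT and 0.66 and 0.50 in KO (0.43 ± 0.16, adjusted p 0.030), a call lost in 6 of the other analyses and in 3 of those that left out 1 library (WT replicate 1, WT replicate 2 or KO replicate 1). *Dab2* pointed the other way without being called, with 0.23 and 0.43 RPKM in WT and 0.22 and 0.19 in KO. *Sox7* had 0.01 RPKM (1 read) in WT replicate 1 and 0.49 (48 reads) in WT replicate 2, a spread wider than any KO difference of this gene.

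Day 25 split the group. *Sparc* alone of the 7 tested was higher in KO (39.4% of all genes), and 5 were lower (25.9% of all genes), with a median of -0.64 beside 0.13 for all genes. Both KO libraries lay above both WT libraries in 3 of 9 members (49.5% of all genes) and below them in 6 (33.4%). *Sparc* had 16.7 and 16.5 RPKM in WT and 39.1 and 35.1 in KO, a difference of 1.15 ± 0.07 (limma adjusted p 3.23e-11) and 2.24-fold in mean RPKM. *Lama1* fell from 10.4 and 9.43 RPKM in WT to 5.48 and 4.92 in KO (-0.92 ± 0.27, adjusted p 0.0056). *Lamb1* had 9.58 and 9.38 against 6.33 and 5.61 RPKM (-0.66 ± 0.13, adjusted p 0.00010).

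*Pdgfra*, the receptor highest in KO at day 9, was at 1.12 and 1.09 RPKM in WT and 0.64 and 0.70 in KO at day 25 (-0.65 ± 0.12, limma adjusted p 5.66e-05). *Dab2* had 0.73 and 0.61 against 0.43 and 0.36 RPKM (-0.64 ± 0.22, adjusted p 0.013). *Gata6* had 1.43 and 1.13 against 1.05 and 0.85 RPKM (-0.39 ± 0.16, adjusted p 0.032). *Pdgfra* and *Sparc* thus moved in opposite directions at day 25. The *Dab2* and *Gata6* calls were lost without WT replicate 1 or KO replicate 2. *Gata4* was not called (1.16 and 1.13 against 1.203 and 1.27 RPKM, 0.10 ± 0.20, adjusted p 0.67). *Sox17* went with *Sparc*, at 0.32 and 0.51 RPKM in WT and 0.83 and 0.77 in KO (0.83 ± 0.23 without the filter, adjusted p 0.0069, 43.6% of genes called).

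Transcript length moved with this comparison. Genes with more than 7706.5 bases of exon, among them *Lama1* and *Lamb1*, had a median difference of -0.22 at day 25, and those with fewer than 3367.5 bases, among them *Sparc*, 0.27. After each library was centred within 10 bins of exon length, chosen after seeing the data, the same 6 calls were made, with *Lama1* at -0.58, *Lamb1* at -0.32, *Pdgfra* at -0.41, *Dab2* at -0.40 (adjusted p 0.049946) and *Gata6* at -0.46.

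The KO effect itself differed between days 25 and 9, a test that used 4 libraries of each day. It was lower at day 25 for 5 members (21.5% of all genes) and higher for 1 (26.7%). The shift was -1.89 ± 0.30 for *Dab2*, -1.65 ± 0.17 for *Pdgfra*, -1.57 ± 0.39 for *Lama1*, -1.35 ± 0.22 for *Gata6*, -1.11 ± 0.18 for *Lamb1* and 0.38 ± 0.11 for *Sparc* (limma adjusted p at most 0.0060). *Gata4* was not called (-0.54 ± 0.29), nor was *Sox17* without the filter (0.09 ± 0.33). These days differ in exonic share, so the set and the time since deletion cannot be told apart.

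From day 11 to day 25, 6 members were called in KO, all lower, led by *Lama1* and *Lamb1* (both -1.22) and *Dab2* (-1.03 ± 0.22). Of all genes, 53% were called in either direction, and the share called lower is not given here. Genes with more than 7706.5 bases of exon had a median of -0.17 in this comparison, and those with fewer than 3367.5 bases 0.07. In WT 1 tested member fell (33.2% of all genes). This was *Sparc*, from 37.1 and 31.8 RPKM to 16.7 and 16.5 (-1.04 ± 0.07, limma adjusted p 8.80e-11). *Sox17*, without the filter, also fell in WT (-0.72 ± 0.23, limma adjusted p 0.015, with 10484 of 22909 genes called). In KO *Sox17* was not called (0.06 ± 0.23). A fit on the groups compared alone called 1 member in KO.

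Averaged over days 3, 9, 11, 17 and 25, 4 members were higher in KO (37.4% of all genes). *Sparc* differed by 0.73 ± 0.03, with both KO libraries above both WT libraries on each of the 5 days. *Gata6* (0.30 ± 0.07), *Pdgfra* (0.18 ± 0.05) and *Lamb1* (0.15 ± 0.06) were called on average but lower in KO at day 25. The *Lamb1* average lost its call in 6 of the other analyses, median centring and voom among them, and when any 1 of 7 libraries was left out (KO replicate 1 of days 3, 17 and 25, KO replicate 2 of days 9 and 11, and WT replicate 1 of days 9 and 17). The *Pdgfra* average lost it in 5 of the other analyses, again with median centring and voom, and *Gata6* in 2. Over days 3 and 9 alone, 6 members were called higher (18.3% of all genes), with *Dab2* at 0.70, *Gata6* at 0.68 and *Pdgfra* at 0.60. Over days 11, 17 and 25 alone *Sparc* was the 1 member called, at 0.83 (38.8% of all genes called higher), and *Pdgfra* was at -0.10. The calls of *Gata6*, *Pdgfra* and *Lamb1* were thus made over the low-share days alone and not over the high-share days alone; the difference between these averages was not tested. *Sox17*, without the filter, had an average of 0.47 ± 0.10 (limma adjusted p 0.0012, 40.9% of genes called).

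Other genes of the extraembryonic endoderm were compared from a list of 26, of which 13 passed the filter. At day 9, 11 of them were higher in KO (16.7% of all genes) and none lower, with a median of 1.03. *Dkk1*, a secreted WNT inhibitor of the anterior visceral endoderm, had the largest difference (1.85), followed by *Cubn* (1.73). *Cubn* encodes the uptake receptor cubilin of visceral endoderm and had 1.58 to 1.70 RPKM in WT and 5.54 to 5.83 in KO. Its partner receptor *Lrp2* (megalin) had 2.72 to 2.92 against 7.48 to 7.71 RPKM. *Apoe* (-0.20) and *F3* (0.09) were the 2 genes not called. By day 25 the list had 6 higher and 2 lower (39.4% and 25.9% of all genes), with *Srgn*, a secretory granule proteoglycan, highest (1.98) and *Lrp2* lowest (-1.34). The visceral endoderm secretion products *Afp* and *Ttr* were low in KO from day 9 on, at no more than 0.193 and 0.258 RPKM in any KO group there. The highest WT library of the series, a low-share one, had 0.844 RPKM of *Ttr*. The 7 high-share WT libraries had at most 0.021 RPKM. These values therefore do not show *Ttr* to be lower in KO than in WT. *Apoe*, of the same list, was at 79.0 to 455 RPKM in the 17 WT libraries.

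Of 13 basement membrane genes, all tested, 5 were higher in KO at day 9 (16.7% of all genes) and 9 at day 11 (22.7%). The collagen IV chains led at day 11, *Col4a2* by 1.55 and *Col4a1* by 1.43. At day 25 there were 3 higher and 8 lower (39.4% and 25.9% of all genes). The 3 were *Serpinh1* (1.24), the collagen chaperone HSP47, *Col4a1* (0.72) and *Col4a2* (0.45), while *Hspg2* (perlecan, -2.81) and *Lama5* (-2.39) fell most. At day 25 *Sparc* was thus higher in KO, as were these collagen chains and their chaperone, and *Lama1* and *Lamb1* were lower, as were *Lama5* and perlecan. Exon length moved with this comparison (median -0.22 in the longest genes and 0.27 in the shorter ones). The values given for this list and for the endoderm list were not centred by length, and the part of length in them was not tested.

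**Figure D3:**
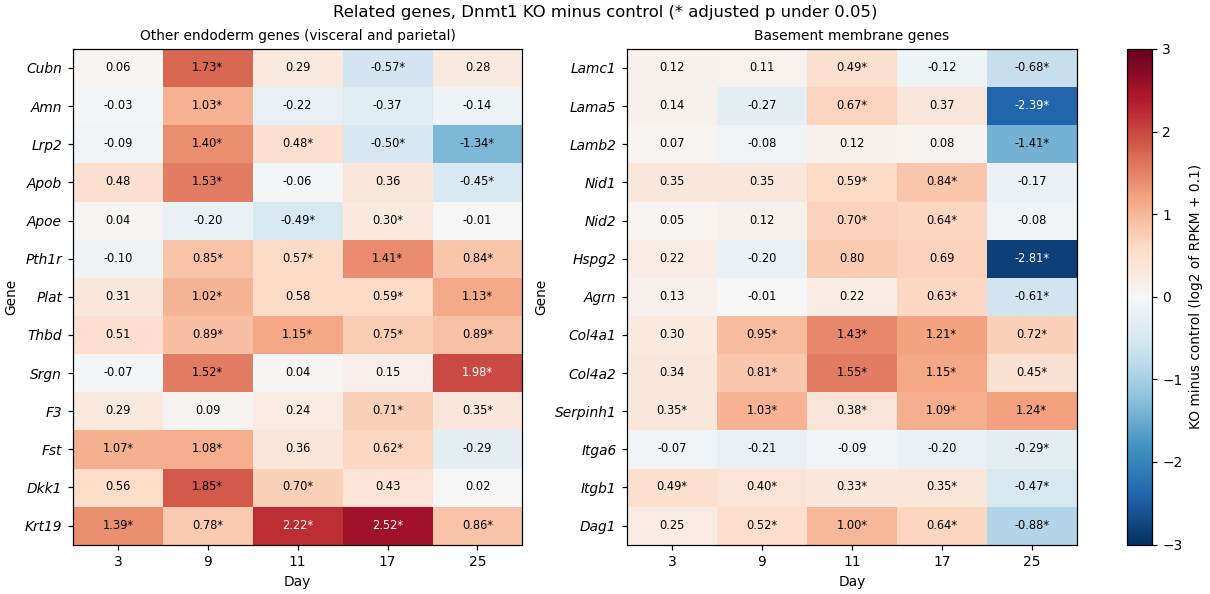
*Dnmt1* KO minus WT (log2(RPKM + 0.1), colour and number) for the tested genes of the extraembryonic endoderm list and the basement membrane list at 5 days, with asterisks at a limma adjusted p below 0.05. Rows such as *Lrp2* (1.40 at day 9, -1.34 at day 25) change sign, and *Serpinh1* is positive throughout.

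Genes that signal into this lineage changed in part. *Pdgfc*, a ligand of PDGFRA, was higher in KO at days 3 (0.80), 9 (0.92), 11 (1.66) and 17 (0.65), and *Pdgfa*, the other ligand listed, at days 9 (0.35), 17 (1.43) and 25 (1.16). *Fgf4*, which epiblast cells secrete, was lower in KO at days 3 (-0.48), 9 (-0.47) and 17 (-0.48). Of the 9 genes in this list 4 were higher (16.7% of all genes) and 1 lower at day 9. *Lrp2*, 1 of these 4, is also in the endoderm list above. Among 8 epiblast factors 1 was higher (*Prdm14*, 0.42) and 1 lower (*Sox2*, -0.36) at day 9. Of all genes 16.7% were called higher at day 9, and 3160 of 11615 were called in either direction. At day 25, 6 of the epiblast factors were higher and none lower (39.4% and 25.9% of all genes), with *Nanog* at 2.23 and *Prdm14* at 1.98. From day 11 to day 25, 5 of the 8 were lower in WT (33.2% of all genes), with a median of -0.80. In KO 2 were higher and 2 lower over these days (53% of all genes were called in either direction), with a median of -0.05. Definitive endoderm and mesendoderm markers were mostly too low to test (1 of 7 passed, *Eomes*, which was not called at day 9, at -0.22, and was higher in KO at days 17 and 25, by 0.60 and 0.88). Of 4 trophoblast markers tested, *Eomes* again among them, 3 were higher at day 9 (16.7% of all genes) and 4 at day 17 (28.9%), led by *Krt8* (2.29).

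Markers of fibroblasts moved with the members in part of the course. Of 21 markers 14 were tested. In KO 9 were higher at day 3 (7.4% of all genes) and 12 at day 9 (16.7%), with none lower. At day 11, 7 were higher (22.7% of all genes) and 1 lower, and at day 17, 6 were higher (28.9%) and none lower. At day 25, 3 were higher and 4 lower (39.4% and 25.9% of all genes). Their summed level at day 9 was 27.9 to 32.3 RPKM in WT and 57.6 to 65.4 in KO, and at day 6 it was 26.2 to 32.7 in the libraries labelled WT and 17.04 to 19.0 in those labelled KO. *Col1a2* ranged from 1.16 to 3.71 RPKM in the 20 low-share libraries. In the 12 libraries of days 11 to 25 *Col1a2* was at most 0.030 RPKM, *Col1a1* at most 0.112 and *Col3a1* at most 0.024. Other collagens of the list were higher in KO there, *Col5a2* by 1.14 at day 11, 1.38 at day 17 and 1.32 at day 25, and *Col5a1* by 0.74 at day 11 and 0.82 at day 17. The summed markers were 5.62 to 6.24 RPKM in WT and 6.201 to 7.66 in KO at day 11. At day 17, where *Acta2* (4.84) and *Tagln* (2.10) had the largest differences, they were 8.10 to 9.12 and 39.1 to 40.2, and at day 25, 12.02 to 12.7 and 7.99 to 8.89. The part of fibroblasts in the differences of the members, *Sparc* included, was not tested on any day.

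**Figure D4:**
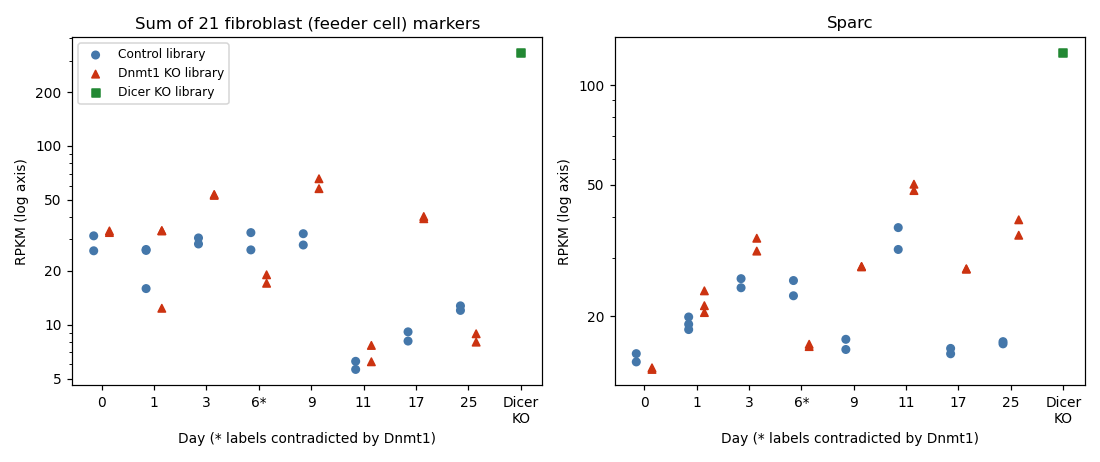
Summed RPKM of the fibroblast markers (left) and RPKM of *Sparc* (right) in each library by day, on log axes, with WT as circles, *Dnmt1* KO as triangles and *Dicer* KO as a square. At day 17 both are higher in KO (39.1 to 40.2 against 8.10 to 9.12 RPKM for the marker sum), at day 25 the sum is lower in KO (7.99 to 8.89 against 12.02 to 12.7) and *Sparc* higher, and both are highest in *Dicer* KO.

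The *Dicer* KO library was set beside the 7 WT libraries of like exonic share, with no test. *Dicer1* RNA itself was at 4.01 RPKM, within their range of 3.90 to 8.57, and the part of the gene that was deleted is not given in the sources used here, so this level does not check the label. *Gata6* was at 0.13 RPKM (11 reads), below all 17 WT libraries, whose lowest was 0.39, and 2.08 lower than the mean of the 7 on the log2 scale. *Sox17* (0.14 RPKM, 11 reads) and *Gata4* (0.48 RPKM, 48 reads) were also below all 17. *Sox7* was at 0.01 RPKM (1 read), a level seen in 1 WT library too. In all, *Gata6*, *Sox17* and *Sox7*, the last on 1 read, made 3 members more than 1 log2 lower than the 7 WT libraries (9.3% of all genes were), and 3 lay below all 17 (5.6% of all genes). The *Gata6* and *Sox17* levels of *Dicer* KO were the lowest of the 35 libraries, and *Gata4* was lower in 1 library, *Dnmt1* KO replicate 1 of day 17 (0.33 RPKM). On the log2(RPKM + 1) scale no member was more than 1 log2 lower.

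The signalling and matrix members did not follow. *Sparc* was at 125 RPKM (10873 reads) in *Dicer* KO, 5.78 times the mean of the 7 WT libraries (21.7) and above all 17 (30.5% of all genes), and was the 1 member more than 1 log2 higher (14.6% of all genes). *Pdgfra* was at 1.26 RPKM, just above the highest WT library (1.22). *Dab2* (0.40), *Lama1* (3.81) and *Lamb1* (9.08 RPKM) lay within the WT range. *Cubn* was low (0.25 RPKM against 1.19 or more in every WT library). Fibroblast markers summed to 330 RPKM in this library, with *Tagln* at 121, *Acta2* at 118 and *Col1a2* at 7.29 RPKM. The part of fibroblasts in the level of any member in this library was not tested.

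Members were compared with every gene tested by the Pearson r of log2 levels over the 34 WT and *Dnmt1* KO libraries, centred within each set. The libraries share days and cultures, and r over pairs of other genes was not computed, so r is a description with no background beside it. The 36 pairs of members had an r between 0.28 and 0.91 with a median of 0.67, and none was negative. *Lama1* and *Lamb1* were the closest pair (0.91), and *Lamc1*, the third chain of the same laminin trimer, was the gene most like *Lama1* (0.92). *Cubn* was the gene most like *Dab2* (0.87), followed by *Gata6* (0.86), and *Lama1* (0.85) and *Gata6* (0.80) were the 2 most like *Gata4*. *Serpinh1* was most like *Sparc* (0.93), and no member was among the 3 genes nearest to *Sparc* or *Sox17* (*Vat1*, 0.84).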

How the data were processed

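Total RNA was depleted of ribosomal RNA and sequenced from 34 control and *Dnmt1* KO libraries and 1 *Dicer* KO library. Per the study's methods and the submitters' processing notes, the authors trimmed reads with Trim Galore 0.3.5, aligned them to mouse NCBIM37 with TopHat2 2.0.11, discarded reads of mapping quality under 20 and counted over genes with SeqMonk. The table they deposited holds linear RPKM in 35 columns, although the methods name log2 RPM; tests had been planned for log2 values, so 0.1 was added and the log2 taken here. Whole reads were recovered from RPKM and exon length (GENCODE vM1): 99.5% to 99.7% of values under 20 reads were whole within 0.1 read, which gave the depth.

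A model of group means for the 16 groups, with a term for the third day 1 pair, was fitted with limma 3.58.1 (trend) in R 4.3.3 and tested on simulated data. Genes above 1 RPKM in at least 2 libraries were tested. The *Dicer* KO library had no test. The authors' own gene calls were not used. Same-numbered KO and WT libraries of a day deviated together with an r from -0.16 to 0.26, so the numbers were not taken as pairs.

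All members were named, as were, from each related list and comparison, genes with the largest and smallest differences and those on which a result turned (*Afp*, *Ttr*, *Pdgfa*, *Eomes*, *Cubn*, *Lrp2* and the fibroblast collagens were named after their values were seen where this did not cover them), and the 3 genes most like each member. Members and lists were chosen with earlier results of these data known. Promoter windows came from RefSeq (4 of 9 members matched), and the motifs searched in them were chosen after the windows had been seen. Figures were drawn with matplotlib 3.10.9 in Python 3.11.15. Alternatives (pseudocount, filter, scaling, spread, samples, left-out libraries) are given at the end.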

Additional observations from a re-analysis of the deposited data

Results flagged for a closer look

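In 6 members the KO effect differed between days 25 and 9 by the test of the difference (limma, adjusted p below 0.05). It was lower at day 25 for *Dab2* (-1.89), *Pdgfra* (-1.65), *Lama1* (-1.57), *Gata6* (-1.35) and *Lamb1* (-1.11) and higher for *Sparc* (0.38), on the log2(RPKM + 0.1) scale. Exonic share, fibroblast markers and the day move together between these days, and their part was not tested. No group had the 4 to 10 libraries that a search for single outlying libraries needs.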

How the results depend on the processing

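Counts here are of members called by limma, among the 7 tested or, with no filter, all 9. For *Dicer* KO they are of the 9 members more than 1 log2 from the 7 WT libraries, with no test. The counts depended on the term for the third day 1 pair, whose libraries lie far from the other day 1 libraries, and on taking the spread from all groups. Without the term the members called were 0 at day 3 and 3 in place of 4 at day 6. At day 9 they were 4 in place of 6, with the calls of *Gata4* and *Lamb1* lost. They were 1 at day 11, 1 at day 17, 2 at day 25, 2 over the mean of days and 3 for day 25 minus day 9. For day 9 minus day 0 they were 0 in WT and 2 in KO, and for KO day 25 minus day 11 they were 3. All genes called went from 17 to 1 at day 1, 1301 to 77 at day 3, 3143 to 330 at day 6, 3160 to 382 at day 9, 4066 to 653 at day 11, 4671 to 1204 at day 17, 7591 to 2430 at day 25, 6719 to 2196 over the mean, 5600 to 842 for day 25 minus day 9, 1743 to 11 and 3580 to 430 for day 9 minus day 0 in WT and in KO, and 7895 to 3332 and 6161 to 1245 for day 25 minus day 11 in WT and in KO. With the spread taken from the groups compared alone, members called were 3 at day 3, 0 at day 11, 1 at day 17, 2 for WT day 25 minus day 11 and 1 for the same in KO; all genes called were 0 at day 1, 2153 at day 3, 311 at day 11, 2872 at day 17 and 1622 for KO day 25 minus day 11.

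At levels above 1 RPKM in 17 libraries, members called were 2 at day 6, 1 at day 17 and 0 for WT day 9 minus day 0, since fewer members were tested. With no filter they were 0 and 2 for WT day 9 minus day 0 and WT day 25 minus day 11, and at day 1 all genes called were 4. A pseudocount of 1 gave 1 member at day 17 and 11 genes at day 1, and for *Dicer* KO 1 member beyond 1 log2 in place of 4. Median centring gave 2 members over the mean and 2 for WT day 9 minus day 0. Voom on recovered reads gave 1 at day 17 and 2 over the mean. Centring by exon length gave 3 for WT day 25 minus day 11. With day 6 added as labelled the mean had 1 member and *Pdgfra* was at -0.010; over days 11, 17 and 25 alone it had 1 member and *Pdgfra* was at -0.10, and over days 3 and 9 alone 3561 genes. The day 1 comparison without the third pair called 33 genes. Causes beyond those stated were not tested.

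Leaving out 1 library gave 0 to 0 members at days 0 and 1, 1 to 1 at day 3, 3 to 5 at day 6, 4 to 7 at day 9, 1 to 4 at day 11, 2 to 4 at day 17, 4 to 6 at day 25, 3 to 7 over the mean and 6 to 6 for day 25 minus day 9. It gave 0 to 2 and 4 to 7 for day 9 minus day 0 in WT and KO, and 1 to 2 and 5 to 7 for day 25 minus day 11 in WT and KO. The counts of 4 at day 17, 7 over the mean, and 2 for the WT comparisons came without a KO library of day 11, and 1 at day 11 without KO replicate 2 of that day. A group left with 1 library was assumed to vary like the others.

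Over all genes it gave 2 to 46 calls at day 1, 566 to 1815 at day 3, 1856 to 3920 at day 6, 1721 to 3920 at day 9 and 2602 to 5325 at day 11, and 298 to 2591 and 1994 to 4347 for day 9 minus day 0 in WT and KO; the other comparisons stayed within 1.5 times.

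A replicate block, which the numbers do not support as pairs, gave 7 members at day 9, the same counts at the other days and 2 in place of 17 genes at day 1. Of 577 values of called members under these alternatives 49 lost the call, and of 1564 with 1 library left out 38 did. Depth limits *Sox7* and *Sox17*, with 1 to 133 reads.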
